A study of Sus scrofa with 42 samples.

Results

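Expression of 10 transcription factors and RNA-binding proteins of the pluripotency network was measured in single cells of pig early embryos: NANOG, POU5F1 (OCT4), SOX2, SALL4, KLF4, KLF5, KLF17, OTX2, LIN28A and LIN28B. They were chosen by gene name, and all 10 were found among the 15351 genes of the expression matrix. Of these, 7 carried their symbol there, KLF4 and OTX2 were listed by identifier alone, and POU5F1 was found by its position on chromosome 7. The cells were 42 zygotes or blastomeres of 20 embryos, 21 cells made by in vitro fertilization (IVF) and 21 by parthenogenetic activation (PA), in which an electric pulse starts development of an oocyte without sperm. IVF 1-cell, 2-cell and 4-cell groups held 3, 6 and 9 cells of 3 embryos each, and the IVF 8-cell group held 3 blastomeres of 1 embryo. The PA groups had the same sizes. Embryos were collected at 19, 27, 48 and 72 h for the 1-, 2-, 4- and 8-cell stages. Time was counted from the end of incubation with sperm for IVF and from the electric stimulation for PA. PA oocytes were then kept in 6-dimethylaminopurine and cytochalasin B, so that timing and treatment also differed between the methods. All oocytes were matured and all embryos cultured in vitro. PA embryos carry maternal chromosomes alone, and an 8-cell group of 1 embryo says nothing of the spread between 8-cell embryos. Expression is given as FPKM, fragments per gene length and library size, so that levels of different genes are comparable per length.

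POU5F1, SOX2 and NANOG are DNA-binding proteins that hold the inner cell mass of the blastocyst, and stem cells taken from it, in a state from which every tissue of the body can form. SALL4 is a zinc finger protein that works with them, and KLF4, KLF5 and KLF17 are Krüppel-like zinc finger factors that bind GC-rich DNA. OTX2 is a homeodomain factor of the later, primed state and of the forebrain, and LIN28A and LIN28B bind RNA and block the maturation of let-7 microRNAs. In the first cleavages, an embryo lives on RNA left in the egg, until its own genome is switched on and maternal RNA is cleared.

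In the Sscrofa11.1 build, NANOG lies at chr5:62932575-62939035, POU5F1 at chr7:23564908-23570600, SOX2 at chr13:119663183-119669539, SALL4 at chr17:53079636-53103023 and KLF5 at chr11:45369575-45388299. KLF4 is at chr1:248604822-248609718, KLF17 at chr6:167176834-167188418, OTX2 at chr1:186027585-186038340, LIN28A at chr6:83806178-83818550 and LIN28B at chr1:71174509-71299820. All 10 are protein-coding genes, and no other gene of the matrix overlaps any of them. Near-identical copies exist for 3 of them, so that part of their reads could belong elsewhere. The NANOG transcript matched chr1:169064134-169065292 with 99.5% identity over 1159 bases, KLF4 matched 2 stretches of chromosome 9 with 90.7% and 95.1% identity over 2140 and 843 bases, and OTX2 matched chromosome 6 with 95.8% identity over 692 bases.

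The 250 bases before the annotated start are shown for KLF17 and KLF4, which were low in 1-cell embryos and high in some later blastomeres. The gene models of both start at or before the RefSeq gene, so that the window lies outside the RefSeq transcript. The windows were read from the RefSeq genome of Sscrofa11.1, on the minus strand, at chr6:167188419-167188668 and chr1:248609719-248609968, respectively. Capitals mark the motif letters that were found.
KLF17: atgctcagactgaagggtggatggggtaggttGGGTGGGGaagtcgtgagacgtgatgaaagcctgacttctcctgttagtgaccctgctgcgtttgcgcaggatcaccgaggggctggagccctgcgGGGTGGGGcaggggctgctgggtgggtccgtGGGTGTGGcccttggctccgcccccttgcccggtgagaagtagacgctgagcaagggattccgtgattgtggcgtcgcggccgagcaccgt
KLF4: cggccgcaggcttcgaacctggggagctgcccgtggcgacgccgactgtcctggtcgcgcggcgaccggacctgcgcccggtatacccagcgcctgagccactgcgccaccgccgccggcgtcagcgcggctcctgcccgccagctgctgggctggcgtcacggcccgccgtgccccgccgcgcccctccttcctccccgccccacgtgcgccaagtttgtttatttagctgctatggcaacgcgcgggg
The motifs searched on both strands were the octamer ATGCAAAT, TAATCC of OTX-type homeodomains, the Krüppel-like motif GGGTGGGG, the CACCC box CCACACCC and TATAAA. KLF17 held GGGTGGGG at 218 to 211 and at 122 to 115 bases before its start, and CCACACCC as its reverse complement at 91 to 84 bases. Among 14915 such windows of protein-coding genes, 10.7% held GGGTGGGG, 2.37% CCACACCC, 1.1% ATGCAAAT, 5.5% TAATCC and 9.29% TATAAA. No motif was found in the KLF4 window. The KLF4 window had 74.4% G and C with 36 CpG and that of KLF17 64.4% with 16, against medians of 58% and 13 over all windows.

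Between 5434123 and 18810466 reads on genes per cell (median 11820189) lay behind the FPKM, as recovered from their steps. One read was worth 0.041 FPKM for NANOG, 0.0192 for KLF17 and 0.00808 for OTX2 in the median cell. Libraries that stand apart touch several results. PA 4-cell-2-1 and PA 2-cell-2-1 had nearly the same values (Pearson's r = 0.999 of log2 values over all genes), as did PA 4-cell-1-4 and PA 2-cell-1-2 (r = 0.998), where no other of the 859 pairs of cells exceeded 0.908. Which label of each pair is right cannot be told, and results on PA embryos are given with and without these blastomeres where it matters. The oocyte markers were present as 12 of 14 listed genes, with a summed level of 378 to 2843 FPKM in cells up to the 4-cell stage and 7.38 to 198 FPKM at the 8-cell stage. Markers of cumulus cells (8 of 16 in the matrix) summed to at most 30.3 FPKM and those of sperm (4 of 11) to at most 32.8 FPKM in any cell, and their part in the results was not tested.

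SALL4 and OTX2 were the members found in 1-cell embryos at more than 10 FPKM, whereas NANOG and KLF17 reached 1 FPKM from the 4-cell stage on, and before it in no other cells than PA 2-cell-1-2 (both) and PA 2-cell-2-1 (NANOG). At FPKM of at least 1, a median of 4.5 of the 10 members was detected per cell at 1-cell, 4 at 2-cell, 5 at 4-cell and 4 at 8-cell stage. The number of members at 10 FPKM or more had a median of 2 in 1-cell and 2-cell, 3 in 4-cell and 4 in 8-cell cells. It ranged from 2 to 5 between 4-cell blastomeres.

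**Figure D1:**
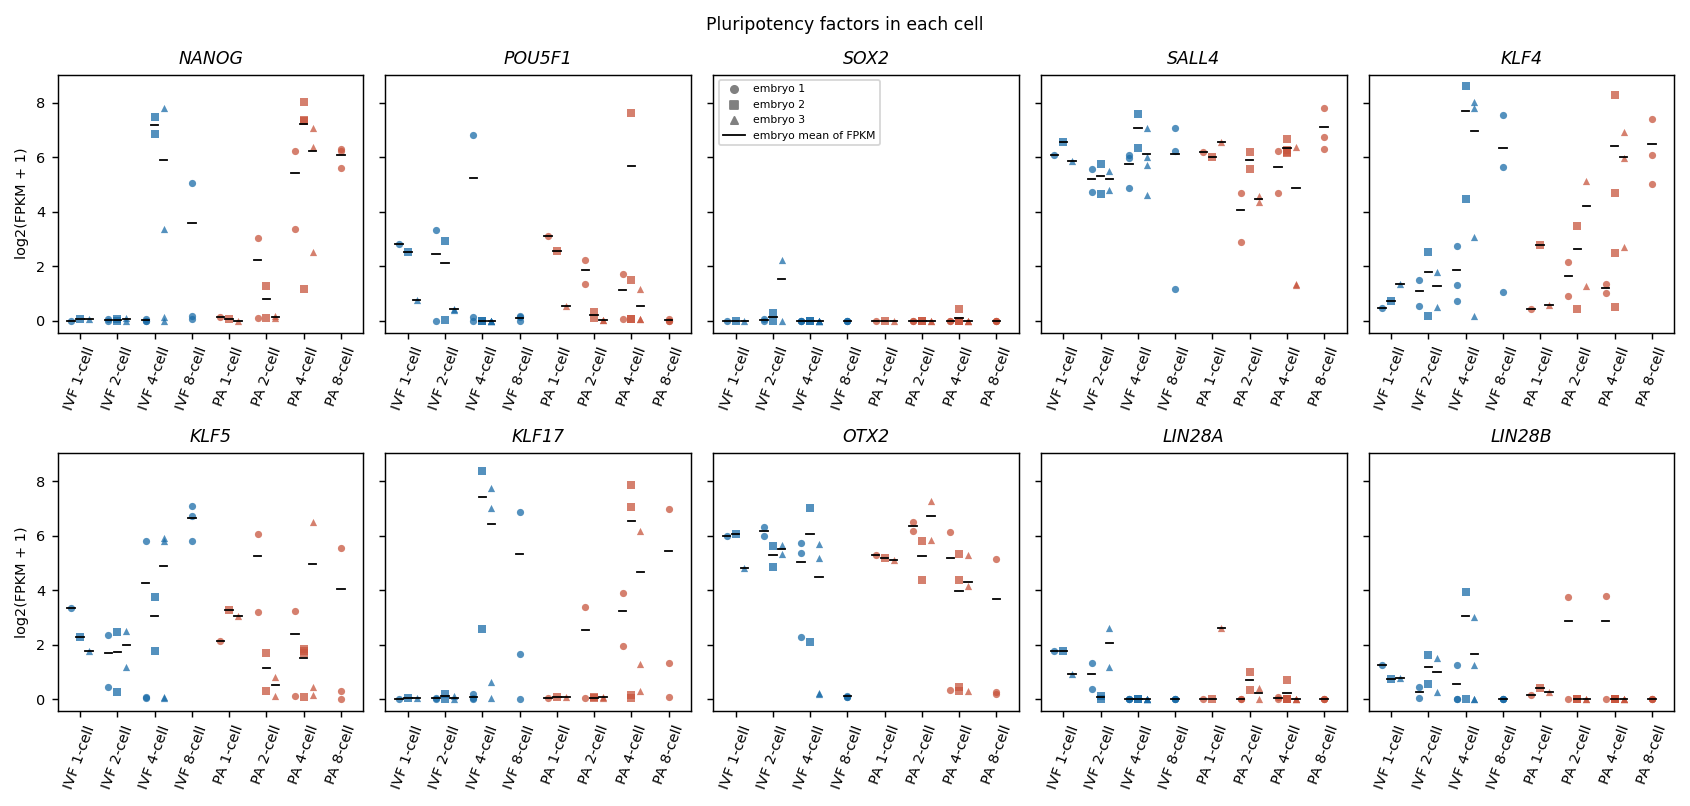
Each panel plots log2(FPKM + 1) of 1 gene in every cell of the 8 groups, with IVF in blue, PA in red, a symbol for each embryo and a black line at the embryo's mean. NANOG and KLF17 sit near 0 in 1-cell embryos and spread from near 0 to 264 and 334 FPKM at the 4-cell stage, SALL4 is above 1 FPKM in all 42 cells, and SOX2 is below 1 FPKM in all cells but IVF 2-cell-3-2 (3.74 FPKM).

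Changes were tested between embryos. Each embryo entered as the average FPKM over its blastomeres, and limma with a mean-variance trend was fitted on log2(FPKM + 1) to all 8 groups and 8116 genes, those that reached 1 FPKM in 3 or more cells. Of the members, 9 passed this filter and SOX2 did not. Genes with a Benjamini-Hochberg adjusted p below 0.05 and at least a 2-fold change were called. Adding 1 shrinks the fold change of genes near 0. From 1- to 2-cell stage, 0 of 9 members were called in IVF and in PA embryos, against 0% and 0.0986% of all genes, and 0 and 1 had an unadjusted p below 0.05 (2.66% and 4.85% of all genes). From 2- to 4-cell stage, 0 of 9 were called in IVF (1.11% of all genes) and 0 in PA embryos (0.394%). Unadjusted p was below 0.05 for 4 members in IVF, where 17.6% of all genes reached it, and for 3 in PA, where 10.8% did. The embryos of both stages did not overlap for 1 member in each 1- to 2-cell step (11.6% and 11.9% of all genes), for 4 in the IVF (20.3%) and 3 in the PA step (12.1%) from 2- to 4-cell. From 4- to 8-cell stage, 1 of 9 members, OTX2, was called lower in IVF embryos (6.97% of all genes were called, 3.25% lower), where no other member had an unadjusted p below 0.05 (19.4% of all genes), and 0 in PA embryos (9.99%), where 0 had an unadjusted p below 0.05 (20.7% of all genes). No overlap was seen for 3 members in IVF (53.2% of all genes) and 5 in PA (57.6%), where 1 embryo stood against 3.

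IVF and PA embryos were compared within each stage. At the 1-, 2- and 4-cell stages 0 of 9 members were called, against 0.0493%, 0% and 0.554% of all genes, and 0 members had an unadjusted p below 0.05 (4.09%, 5.43% and 14% of all genes). Embryos of both methods did not overlap for 1, 1 and 0 members (17.9%, 15.6% and 12.7% of all genes). The steps between stages were compared by the interaction of method and stage. For the step from 2- to 4-cell, 0 members were called (0% of all genes) and 0 had an unadjusted p below 0.05 (5.35%). For the step from 4- to 8-cell, 0 members were called (2.86% of all genes), and OTX2 had an unadjusted p below 0.05 (14.5% of all genes). The median log2 fold change of the 9 members was 1.07 in the IVF step from 2- to 4-cell, against -0.23 over all genes, and 0.81 in that of PA embryos, against -0.17. From 1- to 2-cell it was -0.10 in IVF (all genes -0.11) and 0.69 in PA embryos (-0.09). From 4- to 8-cell it was -0.18 (-0.38) and -0.08 (-0.15). NANOG and KLF17 passed the filter mainly through the 4- and 8-cell cells in which they are high, so these medians give no separate support. The median gene had a limma standard error of 0.816 (log2) between groups of 3 embryos and of 1.16 where an 8-cell embryo took part.

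**Figure D2:**
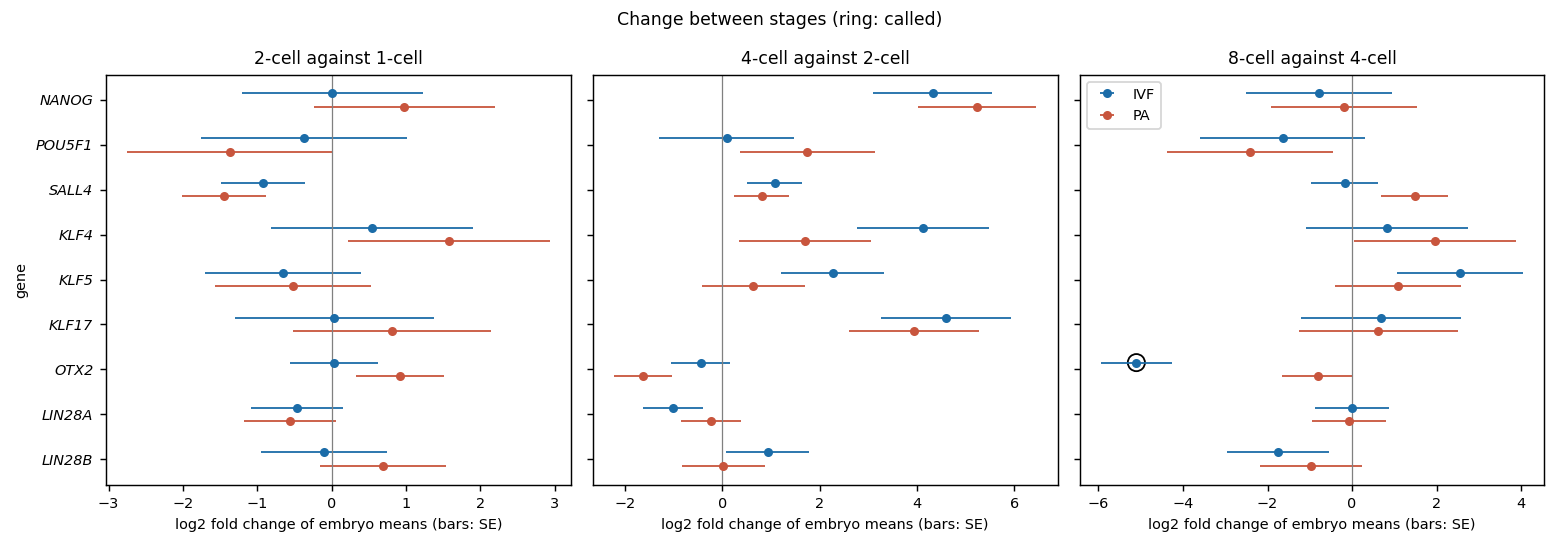
Each point is the log2 fold change of a member in 1 step between stages (horizontal axis; bars are standard errors), with IVF in blue and PA in red. The ring marks OTX2 in the IVF step from 4- to 8-cell, -5.10, and the points of NANOG and KLF17 lie between 3.93 and 5.23 in the step from 2- to 4-cell.

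NANOG, a homeodomain factor of the inner cell mass, was at or below 0.108 FPKM in all 6 1-cell embryos, that is at most 4 reads. IVF 2-cell blastomeres had at most 0.0787 FPKM, and 4 of the 6 PA 2-cell blastomeres at most 0.127 FPKM. The other 2 were the blastomeres that a PA 4-cell library repeats, PA 2-cell-1-2 with 7.22 FPKM and PA 2-cell-2-1 with 1.43 FPKM. At the 4-cell stage, IVF embryos 1, 2 and 3 had a mean of 0.0133, 145 and 58.3 FPKM, and PA embryos 41.8, 148 and 73.9 FPKM. So NANOG was near 0 in all blastomeres of the first IVF embryo and present in every PA 4-cell blastomere. The log2 fold change from 2- to 4-cell was 4.32 in IVF (SE 1.22, limma adjusted p = 0.076) and 5.23 in PA embryos (SE 1.22, limma adjusted p = 0.0688), and neither was called. In IVF embryos, the groups overlapped through embryo 1 alone. Without IVF 4-cell embryo 1, the log2 fold change was 6.49 and was called (limma adjusted p = 4.137e-05). This was the only 1 of 19 alternatives with a NANOG call in that step, and 9.08% of all genes were called in it. The embryo left out is the one near 0, so this fit gives no separate support. In PA embryos, NANOG was called in 10 of 19 alternatives, over which limma adjusted p ranged from 0.000371 to 0.282. Among them were the fits without PA 4-cell-1-4 and 2-1 (log2 fold change 5.64, limma adjusted p = 0.00741) and without PA 2-cell-1-2 and 2-1 (6.17, limma adjusted p = 0.0159). These called 7.47% and 0.796% of all genes, against 0.394% in the main fit. The 4-cell blastomeres left out (9.48 and 1.23 FPKM) are among the lowest of their group in NANOG. The 2-cell ones are the highest of theirs. Both removals thus widen the step and give no separate support.

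Between sister blastomeres, NANOG differed most at the IVF 4-cell stage in embryo 3. It had 224 FPKM in blastomere 3-4 and 9.36 FPKM in 3-1, but 0.0949 FPKM in 3-2 and 0 in 3-3. In embryo 2, NANOG had 114 and 176 FPKM in its 2 blastomeres. In PA embryos, the 9 blastomeres ranged from 1.23 FPKM to 264 FPKM, with a median of 82.7 FPKM. Without PA 4-cell-1-4 and 2-1, the lowest was 4.71 FPKM and the median 134 FPKM. At the 8-cell stage, the IVF embryo had 32.6, 0.124 and 0.0464 FPKM in its 3 blastomeres and the PA embryo 79.2, 47.6 and 75.1 FPKM. The ranges of these 2 embryos did not overlap, but with 1 embryo each there was no test. IVF and PA 4-cell embryos differed by a log2 fold change of -1.92 (95% interval -4.47 to 0.63), with overlapping embryos. By group mean, PA 4-cell (87.9 FPKM) stood above IVF 4-cell (67.8) and PA 8-cell (67.3), which overlapped, then came IVF 8-cell (10.9) and PA 2-cell (1.5). PA 2-cell overlapped with PA 1-cell, and PA 1-cell, IVF 2-cell and IVF 1-cell overlapped at means of 0.0255 to 0.0554 FPKM.

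POU5F1, the POU-domain factor that is required for the inner cell mass, was low in most cells. The 1-cell embryos had 6.16, 4.76 and 0.702 FPKM in IVF, against 7.70, 4.87 and 0.451 in PA, so that both groups covered the same range. At the 2-cell stage, sister blastomeres of IVF embryo 1 had 9.01 and 0 FPKM, and those of embryo 2 0.0253 and 6.68 FPKM. At the 4-cell stage, a single blastomere in each method carried nearly all of it. IVF 4-cell-1-1 had 112 FPKM (1764 reads) where the other 8 had at most 0.101 FPKM, and PA 4-cell-2-4 had 199 FPKM (4329 reads) where the other 8 had at most 2.29 FPKM. At the 8-cell stage, no blastomere exceeded 0.140 FPKM. In limma, POU5F1 was called in none of the 11 comparisons, and its fold change from 2- to 4-cell was 0.09 (SE 1.39) in IVF and 1.74 (SE 1.39) in PA embryos on the log2 scale. By group mean, PA 4-cell (17.3) and IVF 4-cell (12.4 FPKM) came first and PA 8-cell (0.0162) last, and of neighbours in this order only IVF 8-cell (0.0774) and PA 8-cell did not overlap.

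SOX2, an HMG-box partner of POU5F1, was at 0 in 35 of the 42 cells. The highest value was 3.74 FPKM (700 reads) in IVF 2-cell-3-2, whose sister 3-1 had 0, and no other cell reached 1 FPKM. The next was PA 4-cell-2-3 with 0.348 FPKM (48 reads). All 1-cell and all 8-cell cells were at 0, and a count of 0 allows up to 3 reads, or 0.0177 FPKM in the median cell, which covers counting error only. The gene model counted here spans 6357 bases, whereas RefSeq places SOX2 within its last part.

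SALL4, a zinc finger partner of POU5F1 and NANOG, was the most evenly found member, with 1.25 to 224 FPKM in all 42 cells. The 1-cell embryos had 66.5, 94.5 and 57 FPKM in IVF, against 72.5, 64.5 and 92.7 in PA. The 2-cell means were 36.4, 38.9 and 35.7 FPKM in IVF embryos and 15.8, 59.1 and 21.2 FPKM in PA embryos, below the 1-cell embryos of the same method without overlap. The difference was -0.92 in IVF (SE 0.567, limma adjusted p = 1) and -1.44 in PA embryos (SE 0.567, limma adjusted p = 0.865) on the log2 scale, and was not called. Embryo means at the 4-cell stage were 52.8, 135 and 68.5 FPKM in IVF, against 49.8, 79.9 and 28.3 in PA. Without PA 4-cell-1-4, PA embryo 1 had 75.1 FPKM. Sisters differed in PA embryo 3, with 81.9 FPKM in 3-1 but 1.47 and 1.52 FPKM in 3-3 and 3-4. The IVF 8-cell embryo had 134, 74.2 and 1.25 FPKM and the PA 8-cell embryo 107, 224 and 78.7 FPKM in its blastomeres.

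KLF17, a Krüppel-like factor of early human embryos, was absent or nearly so before the 4-cell stage in most cells. In 1-cell embryos it had at most 0.0667 FPKM (4 reads). PA 2-cell-1-2 had 9.47 FPKM and the other 11 2-cell blastomeres at most 0.146 FPKM. Among 4-cell embryos, the means were 0.0632, 169 and 86.1 FPKM in IVF, against 8.39, 91.8 and 24.5 in PA. IVF embryo 1 was again near 0 in all 3 of its blastomeres, and PA embryo 1 had 2.83 FPKM without PA 4-cell-1-4. The log2 fold change from 2- to 4-cell was 4.59 in IVF (SE 1.33, limma adjusted p = 0.0864) and 3.93 in PA embryos (SE 1.33, limma adjusted p = 0.279), and neither was called. Without IVF 4-cell embryo 1, it was 6.87 in IVF embryos and was called (limma adjusted p = 0.000185). The embryo left out is the one near 0, and 9.08% of all genes were called in that fit, so it gives no separate support. KLF17 was called in 2 of 19 alternatives of that IVF step. Blastomeres of IVF embryo 3 had 128, 0.533, 0.029 and 216 FPKM, and those of PA embryo 2 0.033, 234, 0.118 and 133 FPKM. At the 8-cell stage, 1 of 3 blastomeres was high in each method, IVF 8-cell-1-2 with 116 FPKM and PA 8-cell-1-2 with 125 FPKM, and the others had at most 2.15 FPKM.

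KLF4, a reprogramming factor, was at 0.393, 0.662 and 1.55 FPKM in IVF, against 0.350, 5.89 and 0.483 in PA 1-cell embryos. PA 2-cell blastomeres ranged from 0.358 FPKM to 33.9 FPKM, IVF ones from 0.141 to 4.81 FPKM. At the 4-cell stage, the embryo means were 2.65, 206 and 124 FPKM in IVF, against 1.29, 84.7 and 63.2 in PA. The IVF 4-cell embryos all lay above the 2-cell embryos, with a log2 fold change of 4.11 (SE 1.36, limma adjusted p = 0.124). It was called in 1 of 19 alternatives, the fit without IVF 4-cell embryo 1 (5.94, limma adjusted p = 0.00592). The embryo left out is the lowest of the 3, and 9.08% of all genes were called in that fit, so it gives no separate support. In PA embryos, the stages overlapped, and the log2 fold change was 1.70 (SE 1.36). The highest blastomeres were IVF 4-cell-2-2 with 391 FPKM, PA 4-cell-2-2 with 309 FPKM, IVF 4-cell-3-1 with 262 FPKM and IVF 4-cell-3-4 with 226 FPKM. All 6 8-cell blastomeres had KLF4, at 1.09, 49.6 and 189 FPKM in IVF, against 67.6, 31.9 and 169 in PA.

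KLF5, a relative with roles in inner cell mass and trophectoderm, was present from the 1-cell stage, at 9.20, 3.82 and 2.42 FPKM in IVF, against 3.44, 8.73 and 7.31 in PA. At the 4-cell stage, KLF5 was high in a few blastomeres. IVF 4-cell-1-4, 3-1 and 3-2 had 55.1, 54.6 and 59.2 FPKM, PA 4-cell-3-4 had 89.4 FPKM, and 4 of the 9 IVF and 4 of the 9 PA 4-cell blastomeres were below 1 FPKM. The IVF 8-cell embryo had 137, 54.9 and 104 FPKM, above every IVF 4-cell embryo (7.37 to 28.5 FPKM), and the PA 8-cell embryo 45.7, 0.245 and 0 FPKM. The log2 fold change from 4- to 8-cell was 2.56 in IVF (SE 1.49, limma adjusted p = 0.381) and 1.08 in PA embryos (SE 1.49, limma adjusted p = 0.841). From 2- to 4-cell it was 2.26 in IVF embryos (SE 1.05, limma adjusted p = 0.275), which did not overlap.

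OTX2, the homeodomain factor, was high in every cell up to the 2-cell stage. All 18 cells of the 1- and 2-cell stages had between 19.9 and 152 FPKM. The 1-cell embryos had 63.1, 65.3 and 27 FPKM in IVF, against 37.9, 35.8 and 33.3 in PA. In 4-cell embryos, sister blastomeres differed strongly. In IVF embryo 3, 3-2 and 3-3 had 51.4 and 34.9 FPKM but 3-1 and 3-4 had 0.127 and 0.161 FPKM. In PA embryo 2, 2-1 and 2-2 had 19.6 and 39 FPKM but 2-3 and 2-4 had 0.377 and 0.226 FPKM. The IVF 8-cell blastomeres had 0.0646, 0.0899 and 0.0549 FPKM (3 to 11 reads), below all 3 IVF 4-cell embryos, whose means were 32, 65.8 and 21.6 FPKM. The PA 8-cell embryo had 0.154 and 0.193 FPKM in 2 blastomeres and 34.7 FPKM in PA 8-cell-1-4, with a mean of 11.7 FPKM. The 3 PA 4-cell embryos had means of 14.8 to 35 FPKM, but 0.25, 13.2 and 18.5 FPKM without PA 4-cell-1-4 and 2-1, so that the stages then overlapped.

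From 4- to 8-cell stage, OTX2 fell by 5.10 on the log2(FPKM + 1) scale in IVF embryos (SE 0.845, 95% interval -6.87 to -3.34, limma adjusted p = 0.000641). With 1 embryo at the 8-cell stage, its spread was assumed to be that of the other groups. The change was no longer called when the IVF 4- and 8-cell groups were fitted alone (limma adjusted p = 0.299) or when blastomeres with an estimated sister correlation replaced embryos (-3.65, limma adjusted p = 0.0774). The PA change was -0.82 (SE 0.845, limma adjusted p = 0.724), and its direction turned to 0.85 without PA 4-cell-1-4 and 2-1 (limma adjusted p = 0.956). The difference between both steps was -4.29 (SE 1.19, limma adjusted p = 0.059) and was not called, whereas its adjusted p ranged from 0.0132 to 1 over 19 alternatives and passed in 5 of them. Summed oocyte markers moved the same way, and the log2 fold changes of BTG4, which drives the removal of maternal mRNA, were -6.65 and -4.46 from 4- to 8-cell in IVF and PA embryos. Their part in the result was not tested. From 2- to 4-cell stage, PA embryos changed by -1.63 (SE 0.597, limma adjusted p = 0.317), and by -3.30 without PA 4-cell-1-4 and 2-1, which was called (limma adjusted p = 0.0205). In that fit 7.47% of all genes were called. The blastomeres left out had 69.8 and 19.6 FPKM of OTX2, so it gives no separate support.

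LIN28A, the let-7 blocker of stem cells, was low and lost by the 4-cell stage. The 1-cell embryos had 2.43, 2.40 and 0.879 FPKM in IVF, against 0, 0 and 5.17 in PA. Sister 2-cell blastomeres of IVF embryo 3 had 1.28 and 5.06 FPKM. All 9 IVF 4-cell and all 6 8-cell blastomeres were at 0, which allows up to 3 reads or 0.182 FPKM in the median cell. In PA 4-cell embryos, 2-1 had 0.626 FPKM and 1-4 had 0.0462 FPKM, and these are the blastomeres that nearly repeat 2-cell libraries, while the other 7 were at 0. LIN28B, its paralog, was at 0.101 to 1.39 FPKM in 1-cell embryos. The highest values were 14.4 and 7.14 FPKM in IVF 4-cell-2-3 and 3-2, and 12.4 and 12.8 FPKM in PA 2-cell-1-2 and in PA 4-cell-1-4, which repeat each other. All other PA 4-cell blastomeres had at most 0.0102 FPKM, and all 8-cell blastomeres were at 0. Neither gene was called in any of the 11 comparisons by limma.

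Sisters were compared by the range of log2(FPKM + 1) within an embryo. In all 6 2-cell embryos, 0 of 9 members had a range of 4 or more, which was reached by 0.727% to 7.09% of all genes. At the 4-cell stage, 2, 3 and 5 members reached it in IVF embryos 1, 2 and 3 and 1, 5 and 6 in PA embryos, against 11.6% to 31.2% of all genes. In the 8-cell embryos it was 4 members in IVF and 3 in PA, against 19.4% and 20.2% of all genes. Embryos with more blastomeres sampled can show a larger range. PA 4-cell-1-4 and 2-1, which nearly repeat 2-cell libraries, enter PA embryos 1 and 2. Without them, embryo 2 had 4 members with such a range (19% of all genes), and embryo 1 had a single blastomere and no range.

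**Figure D3:**
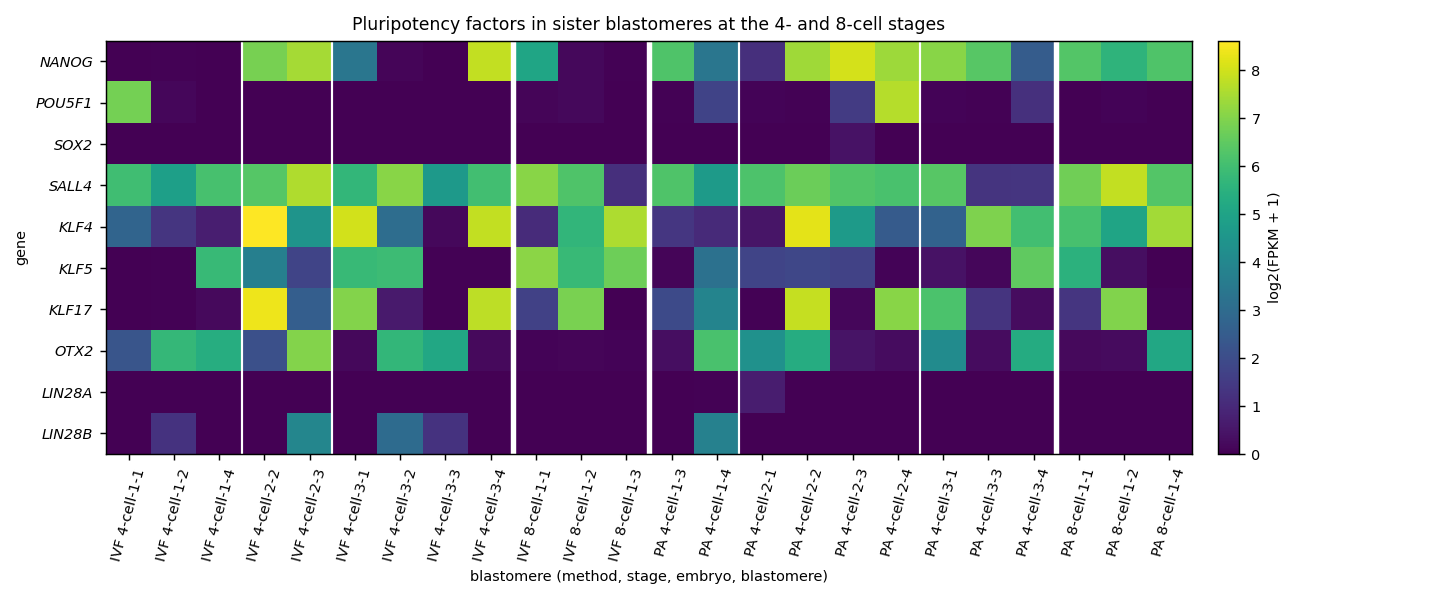
Rows are the 10 members and columns the 24 blastomeres of the 4- and 8-cell stages, separated by thin lines between embryos and thick lines between groups, and the colour gives log2(FPKM + 1). NANOG, KLF4 and KLF17 are bright together in IVF 4-cell-2-2 and 3-4 and PA 4-cell-2-2, and POU5F1 is bright in IVF 4-cell-1-1 and PA 4-cell-2-4 alone.

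Co-expression was described over the 18 4-cell blastomeres, which share 6 embryos and differ in depth, so no p is given. Of the members, 8 had FPKM of at least 1 in at least 3 of these cells and gave 28 pairs, with a median Pearson's r of log2(FPKM + 1) of -0.03 and a range from -0.46 to 0.64. Over all 18, NANOG, KLF17 and KLF4 went together, but not in every blastomere. PA 4-cell-2-3, the highest in NANOG (264 FPKM), had 0.118 FPKM of KLF17. NANOG and KLF17 had r = 0.64 (Spearman 0.67), and between 0.54 and 0.69 when each embryo was left out. It was 0.63 without the PA 4-cell blastomeres that nearly repeat 2-cell libraries. All 10 blastomeres with KLF17 of at least 1 FPKM also had NANOG of at least 1 FPKM, 3 had NANOG alone and 5 neither. All 9 PA blastomeres had NANOG at that level, so the overlap was given there. At 10 FPKM, 5 blastomeres had both, 4 NANOG alone, 2 KLF17 alone and 7 neither. The 2 with KLF17 alone were IVF 4-cell-3-1 and PA 4-cell-1-4, with NANOG just below that limit, at 9.36 and 9.48 FPKM. PA 4-cell-1-4 nearly repeats a 2-cell library. Within methods, NANOG and KLF17 had r = 0.81 in IVF and 0.50 in PA blastomeres. KLF4 had r = 0.61 with KLF17 and 0.56 with NANOG. Within methods, KLF4 and KLF17 had r = 0.96 over 9 IVF and 0.13 over 9 PA blastomeres. For NANOG and KLF4 it was 0.80 in IVF and 0.38 in PA blastomeres. These differences between methods were not tested. For comparison, 1.12% of 8074 genes had r above 0.5 with NANOG over these cells, and 4.2% with KLF17.

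OTX2 and LIN28B had r = 0.63 (Spearman 0.68), and all 5 blastomeres with LIN28B of at least 1 FPKM had OTX2, while 7 had OTX2 alone and 6 neither. The only PA blastomere among these 5 was PA 4-cell-1-4, which nearly repeats a 2-cell library. Without it and PA 4-cell-2-1, r was 0.62. Of 8074 genes, 5.48% had r above 0.5 with OTX2 and 8.17% with LIN28B. OTX2 and NANOG had r = -0.46, where 8.33% of genes lay below -0.5 with NANOG. There were 7 blastomeres with both at 1 FPKM or more, 6 with NANOG alone and 5 with OTX2 alone. Among the 7 were PA 4-cell-1-4 and 2-1, without which r was -0.45. IVF 4-cell-2-3 had both high, with 176 FPKM of NANOG and 128 FPKM of OTX2. Pearson's r of SALL4 or POU5F1 with any other member over the 18 blastomeres lay between -0.28 and 0.29, but Spearman's rho of NANOG and SALL4 was 0.44, and within the 9 IVF blastomeres SALL4 and LIN28B had r = 0.54. Among the 6 8-cell blastomeres, the 10 pairs of 5 members ranged from -0.53 to 0.69, with NANOG and KLF17 at -0.18. These 6 cells come from 1 embryo of each method, so their values are not compared with those of the 4-cell stage.

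**Figure D4:**
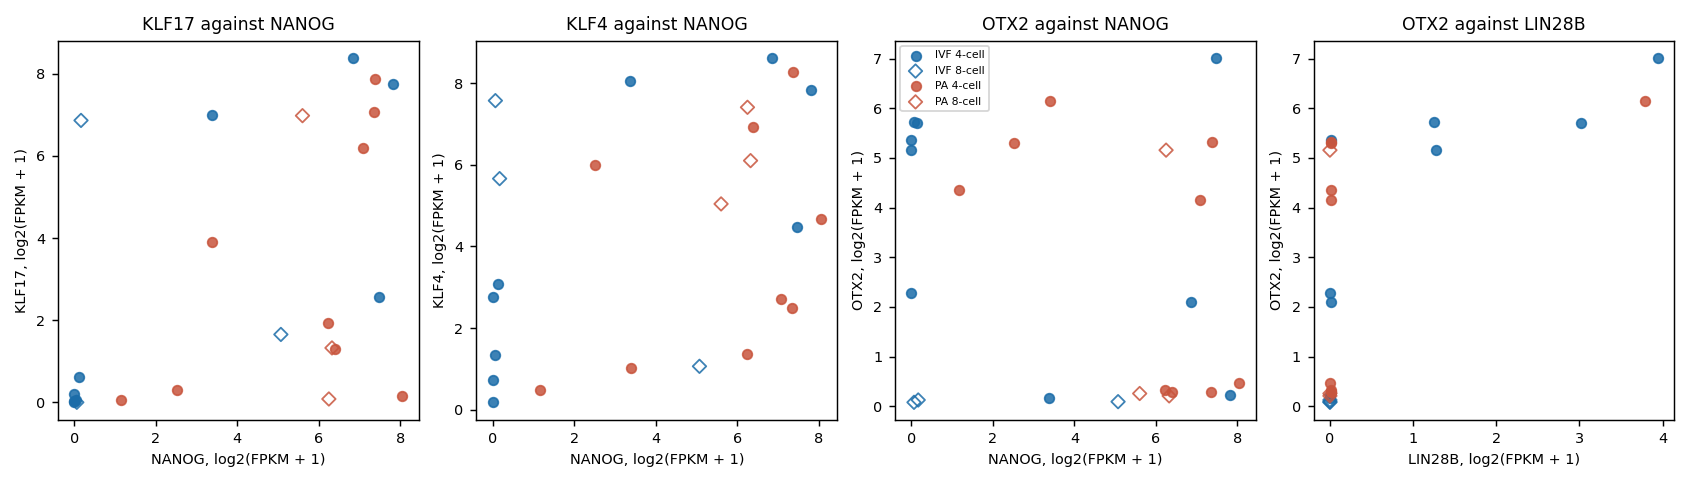
Each point is a blastomere, filled for the 4-cell and open for the 8-cell stage, with IVF in blue and PA in red, and both axes give log2(FPKM + 1). KLF17 and KLF4 rise with NANOG among filled points, OTX2 is at 34.9 to 51.9 FPKM in 4 of the 5 4-cell blastomeres with NANOG near 0 (3.87 FPKM in the other) and below 1 FPKM in the IVF 8-cell ones, and the 5 4-cell blastomeres with LIN28B of at least 1 FPKM all hold OTX2.

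Other measures moved with these genes over the same 18 blastomeres. The first principal component of all other nuclear genes, which took 16.2% of their variance, had r = -0.73 with NANOG, -0.78 with KLF4, -0.59 with KLF17 and 0.59 with OTX2. Summed oocyte markers had r = 0.73 with OTX2, -0.53 with KLF17, -0.50 with KLF4 and -0.41 with NANOG. Reads on genes had r = 0.37 with OTX2 and -0.15 with NANOG, and the mitochondrial share of FPKM had -0.16 and -0.08. The part of these measures in the co-expression was not tested. For POU5F1, reads on genes had r = -0.48.

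Over all 42 cells, the genes whose log2(FPKM + 1) was most like each member were looked up among 8115 others. For NANOG they were FAM32A (r = 0.83), TFAP2C (0.78), a transcription factor of trophectoderm and germ cells, and CDC26 (0.77), a subunit of the anaphase-promoting complex. OTX2 was most like CGGBP1 (0.84), WEE2 (0.84), an oocyte kinase that holds meiosis, and ESRP1 (0.82), a splicing factor. KLF17 was followed by RPS21 (0.77), RPL10 (0.75) and USP29 (0.74), and KLF4 by BTG3 (0.81), RPS15A (0.75) and SYF2 (0.75). KLF5 was most like RPL3 (0.60), AKAP8 (0.59) and RPL7A (0.58), and RPS21, RPL10, RPS15A, RPL3 and RPL7A encode ribosomal proteins. POU5F1 came with ASCC1 (0.74), CDCP1 (0.66) and ADAR (0.63), where 2 cells hold most of the signal. SALL4 had the weakest likeness, with POLR1D (0.56), CEBPZ (0.52) and CEBPZOS (0.50). LIN28A was most like ZNF283 (0.86), ARHGAP24 (0.79) and VEZT (0.77), and LIN28B was most like CNIH4 (0.77), ZNF71 (0.77) and C12orf75 (0.74). These r share cells, stages and depth.

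Related genes were counted from lists. Of 35 other genes of the pluripotency network, 22 were in the matrix and 16 were tested, and 2 of these were called higher in PA 8-cell than in 4-cell embryos (6.81% of all genes were called higher), NR5A2 (4.77, SE 0.999) and ESRRB (4.43, SE 0.633), both nuclear receptors. Each rested on 1 of the 12 PA 4- and 8-cell blastomeres, NR5A2 on PA 8-cell-1-2 (83.0 FPKM, the next at 0.417) and ESRRB on PA 8-cell-1-4 (61.8 FPKM, the next at 0.0705). When PA 4- and 8-cell embryos were fitted alone, these 2 did not pass the filter and limma called 0 of 3499 genes, with every PA call of this step lost or untested. None of the 16 was called in the other 10 comparisons. The most abundant of them was MYC, with a mean of 35.3 FPKM. Among 18 other Krüppel-like and SP factors in the matrix, 10 were tested. Of these, KLF7 (-4.95) and KLF11 (3.13) were called in the IVF step from 4- to 8-cell, where 6.97% of all genes were called. None was called in any PA step (0.0986%, 0.394% and 9.99% of all genes in order of stage). With only the groups compared, KLF7 was not called and KLF11 did not pass the filter. For KLF11, the difference between the IVF and PA steps was 3.23 (SE 0.857, limma adjusted p = 0.0483), which was called in 5 of 16 alternatives. It rested on IVF 8-cell-1-2, with 23.5 FPKM of KLF11, where the next of the 24 4- and 8-cell blastomeres had 0.464 FPKM. KLF3 had the highest mean of this family, 43.3 FPKM. Of 8 relatives of SALL4, SOX2, POU5F1 and OTX2 in the matrix, 2 were tested and 0 called, and POU2F1 was the most abundant, at 3.91 FPKM. None of 12 PRD-like homeobox genes of the list was found by name in the matrix.

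In the let-7 and LIN28 list, 17 of 19 genes in the matrix were tested. From 4- to 8-cell stage, 6.97% of all genes were called in IVF and 9.99% in PA embryos. IGF2BP3, an RNA-binding protein of the IGF2 mRNA family and the most abundant of the list (mean 650 FPKM), fell from 4- to 8-cell stage by 5.34 in IVF (SE 0.526) and by 3.95 in PA embryos on the log2 scale. IGF2BP1, its relative, rose in the same step by 4.88 and 5.05 (SE 0.474). Only 3 cells of the whole series reached 1 FPKM of IGF2BP1 (median 0, highest 88.7 FPKM), so both rises rest on at most 3 blastomeres. IGF2BP2 was called in PA (3.31, SE 0.720) but not in IVF embryos (2.31, limma adjusted p = 0.0607). With only the groups compared, IGF2BP1 did not pass the filter in either method, and IGF2BP2 did not in PA embryos. The difference between both IGF2BP2 steps was -1.001 (limma adjusted p = 0.878) and was not called. Oocyte markers fell in this step: 5 of 11 tested were called lower in IVF and 6 in PA embryos, against 3.25% and 3.18% of all genes called lower. Fitted on the 4- and 8-cell groups alone, 3 (BTG4, WEE2 and BMP15) were called in IVF and 0 in PA embryos. Without PA 4-cell-1-4 and 2-1, WEE2 was lost in PA (limma adjusted p = 0.36) and OOSP2 in IVF (limma adjusted p = 0.0582). BTG4, WEE2, BMP15, KPNA7 and OOSP2 were called in both when all groups were fitted. Of these, BTG4 was the most abundant (mean 459 FPKM), and the others fell by 4.34 to 7.09 in IVF. Among trophectoderm markers, TFAP2C was called higher from 2- to 4-cell in IVF embryos (4.35, SE 0.926, limma adjusted p = 0.0283), and GATA3 from 4- to 8-cell in IVF embryos (3.95, limma adjusted p = 0.0402). In these steps 1.11% and 6.97% of all genes were called either way. TFAP2C was the most abundant of its list, with a mean of 14.3 FPKM, as STAR was of the cumulus markers with 4.90 FPKM and ODF2 of the sperm markers with 1.30 FPKM. ODF2 was called higher from 4- to 8-cell in IVF embryos (3.35, limma adjusted p = 0.0209), and 0 of 5 cumulus markers were called in any comparison by limma. The rise of ODF2 rested on 1 IVF 8-cell blastomere with 32.8 FPKM, in a group whose summed sperm markers had a median of 0.00459 FPKM. ODF2 was called in 9 of 13 alternatives, GATA3 in 8 of 15 and TFAP2C in 10 of 19. With only the groups compared, ODF2 and GATA3 did not pass the filter, and TFAP2C was not called (limma adjusted p = 0.148). The lists were chosen with earlier results of these data known.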

How the data were processed

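RNA of 42 single cells from 20 pig embryos was sequenced after amplification. The authors aligned reads to Sscrofa11.1 with HISAT2, assigned them to genes and deposited 1 FPKM value per gene and cell. The sample labels describe a kit for oocyte pools and the article a single-cell method. Strand setting and molecular identifiers are not given in the sources used here. For 99.99% of 14692 genes above 0, FPKM were whole multiples (within 0.02 reads) of 1 read, which gave 5434123 to 18810466 reads on genes per cell. Floors of 3 reads cover counting error only.

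Groups came from the labels, and the embryo was the replicate. The labels name embryos but not separate batches of oocytes, so p-values measure the spread between these embryos. Embryo means of FPKM were tested as log2(FPKM + 1) with limma 3.58.1 in R 4.3.3, with a mean-variance trend, over 8116 genes, those that reached 1 FPKM in 3 or more cells. The same fit was tested on simulated data. IVF and PA 8-cell embryos were not tested against each other, with 1 embryo each. Correlations, levels and figures were made with pandas 2.3.3, numpy 2.4.6, scipy 1.17.1 and matplotlib 3.10.9 under Python 3.11.15, and windows were read with pysam 0.24.0. Embryo numbers were not taken to pair the groups. Deviations of same-numbered embryos correlated with a median r of 0.0083 over 45 pairs, but all 3 pairs of PA 2-cell and 4-cell embryos lay above the limit of 0.1 (0.1002 to 0.355). PA 4-cell-1-4 and 2-1 nearly repeat same-numbered PA 2-cell libraries, and without them these 3 were -0.0131 to 0.00865. The block changed no member's call in that comparison. The alternatives were other pseudocounts, filters, scalings, summaries over blastomeres and samples, and the replicate block.

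All members were named in each comparison. Named besides were the 3 genes most like each member and, of each list, the most abundant gene and genes called in a step of both methods. Other list genes were named after their values were seen. The members and lists were chosen with earlier results of these data known.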

Additional observations from a re-analysis of the deposited data

Results flagged for a closer look

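In 7 of the 39 pairs of a member and a group of 4 to 10 cells, 1 cell stood apart from the others by the limit of Dixon's test. That limit assumes independent, normally distributed values. Sister blastomeres with many values at or near 0 are not such values, so the count cannot be set against a chance rate. POU5F1 was 111.9 FPKM in IVF 4-cell-1-1, against at most 0.101 FPKM in the other 8 blastomeres, and 199.4 FPKM in PA 4-cell-2-4, against at most 2.29 FPKM. SOX2 was 3.74 FPKM in IVF 2-cell-3-2, where its sister had 0. KLF5 was 89.42 FPKM in PA 4-cell-3-4, where the others of that group had 0.0581 to 8.36 FPKM. KLF17 (9.472 FPKM) and LIN28B (12.44 FPKM) stood apart in PA 2-cell-1-2, and LIN28B (12.77 FPKM) in PA 4-cell-1-4. The last 2 libraries nearly repeat each other (r = 0.998).

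KLF11 differed between methods in the step from 4- to 8-cell, by 3.227 on the log2 scale (SE 0.857, limma adjusted p = 0.0483). The 8-cell stage had 1 embryo per method, and KLF11 was called in 5 of 16 alternatives. IVF 8-cell-1-2 alone reached 1 FPKM of KLF11 (23.5 FPKM) among 24 4- and 8-cell blastomeres. Fitted on the groups compared alone, it did not pass the filter, and 0 of 5893 genes were called.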

How the results depend on the processing

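No member's fold change turned its direction where it was called, but 118 of 1839 alternative fold changes, called in neither setting, changed sign, among them that of OTX2 in PA 8-cell against 4-cell (0.85 without PA 4-cell-1-4 and 2-1). Of 220 alternative values of counts and medians, 192 were unchanged. For counts of calls this means the same count, mostly 0, and for medians a shift within their spread. For IVF 4-cell against 2-cell, 0 members were called (1.11% of all genes). With the mean of log2 values over blastomeres, 1 was called (KLF17), with 6.555% of all genes. Leaving out single embryos gave 0 to 3 calls, with 3 (NANOG, KLF4 and KLF17) without IVF 4-cell embryo 1 (9.08% of all genes). For IVF 8-cell against 4-cell, the 1 call of OTX2 became 0 with only the groups compared, where the adjusted p rests on fewer embryos, and 0 with blastomeres and an estimated sister correlation. For PA 4-cell against 2-cell, the 0 calls (0.394% of all genes) became 1 with FPKM of at least 5 (0.675%) and with nuclear genes rescaled (0.658%). The count was also 1 with the median over blastomeres (0.924%), with only the groups compared (0.3915%) and with a sister correlation (2.045%). It was 2 with the mean of log2 values (2.65% of all genes) and without PA 4-cell-1-4 and 2-1 (7.47%), and 3 with median-ratio scaling (6.97%). Leaving out single embryos gave 0 to 1, the latter without PA 4-cell embryo 1 (1.9% of all genes). Leaving out PA 2-cell-1-2 and 2-1, chosen after seeing the data, gave 1 (0.796%). For PA 8-cell against 4-cell, the median over blastomeres gave 1 call (OTX2), with 5.06% of all genes called, against 9.99% in the main fit. For IVF against PA at 4-cell, median-ratio scaling gave 1 call (NANOG, -4.44, limma adjusted p = 0.0418). With that scaling, 5.425% of all genes were called, against 0.554% in the main fit. For the difference between the steps from 4- to 8-cell, 2.86% of all genes were called in the main fit. A pseudocount of 0.1 (1.8% of all genes) and no filter (4.91%) gave 1 call each (OTX2). Leaving out single embryos gave 0 to 1. It was 1 without IVF 4-cell embryo 1 (4.4%), IVF 4-cell embryo 3 (2.63%) or PA 4-cell embryo 1 (2.77%). The cause was not tested. Median-ratio scaling moved the median of all genes to 0.27 in both steps from 2- to 4-cell.

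With the embryo number as a replicate block, IVF 8-cell against 4-cell kept 1 call (OTX2, -5.40, limma adjusted p = 0.00107) and the other comparisons had 0. The median r of pairs at the 4-cell stage was 0.0539 by Spearman in place of -0.03. The median number of members per cell was 8, 8, 8 and 6.5 at 1-, 2-, 4- and 8-cell with FPKM above 0, and 3.5 at 1-cell and 4-cell with at least 5. Leaving out the lone 8-cell embryos could not be fitted. A spread between 8-cell embryos was not measured, which limits every comparison with that stage.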
